A study of Rattus norvegicus with 12 samples.

Results

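Heat shock proteins are molecular chaperones, proteins that help others fold, hold damaged ones in solution or pass them on for degradation. Co-chaperones are the partner proteins that steer them. The 10 genes described here were chosen by symbol from the 37209 gene symbols of a count table of rat brain RNA. They are the small heat shock proteins Hspb1, Hspb8 and Cryab, the HSP70 proteins Hspa1a, Hspa1b and Hspa8, the HSP70 partners Dnajb1, Bag3 and Hsph1, and the HSP90 protein Hsp90aa1. All 10 are in the table, and all 10 were among the 17008 genes with enough counts to be tested.

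The 12 libraries were made from brain RNA of rats of the Sprague Dawley strain, aged 21 postnatal days, and form 4 groups of 3. One group had a middle cerebral artery occlusion (MCAO), in which the main artery of a cerebral hemisphere is blocked. Another had a pontine infarction, a stroke of the pons in the brainstem. The remaining groups were sham animals, coded LN and PN. Codes with the same first letter were matched, so that MCAO was set against sham LN and pontine infarction against sham PN. Strain, age and the named tissue, brain, were the same in all groups, and no genetic change is named. The labels mention 3 rats for each stroke, but not which brain region was taken or how long after the stroke. The p-values measure the spread between these libraries. For 1 MCAO library the number in the table matches no title, and it is called the unnumbered MCAO library.

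In resting cells the transcription factor HSF1 is held inactive by chaperones. When misfolded proteins accumulate it is freed, forms trimers and binds heat shock elements, short inverted repeats of the bases GAA in the promoters of chaperone genes. HSP70 proteins bind exposed stretches of unfolded clients in a cycle driven by ATP: J-domain proteins such as Dnajb1 start the cycle, and exchange factors such as Bag3 and Hsph1 reopen it. Small heat shock proteins need no ATP and keep unfolded clients from clumping. In injured brain, Hspb1 is known from reactive astrocytes and vessel cells, and the inducible HSP70 from neurons, glia and vessels at the border of the damage, while Cryab is abundant in oligodendrocytes.

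The libraries held 19805815 to 40400676 counts, and the 10 genes together took up 0.0559% to 0.24% of a library's counts. Levels are counts normalised to library size (CPM), which depend on gene length, so that they are compared between samples and not between genes. Group values are mean ± SD of 3 libraries, and log2 changes are given ± SE. Neuronal Snap25 and oligodendrocyte Mbp were detected in every library. Of 606 protein-coding genes on chromosome X, 591 were listed at 0 in all 12 libraries, against 1052 of 16016 on the numbered chromosomes. None of the 10 heat shock genes lies on X.

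Promoter sequences are shown because these genes are textbook targets of HSF1 and their changes after stroke differed widely in size. RefSeq promoters of build GRCr8, each 250 bases before and 50 after the annotated start, were at hand for 7 of the 10 genes (not Cryab, Hspa1b or Hsp90aa1). Of these, 2 hold a 3-unit heat shock element, written GAANNTTCNNGAA or, on the other strand, TTCNNGAANNTTC. That element is in 0.798% of 33469 rat promoters of the same length. A pair of adjoining units, GAANNTTC or TTCNNGAA, each its own reverse complement and part of every 3-unit element, is in 6 of the 7 and in 15.85% of all promoters. The annotated Hspa1a window holds neither. Each line below runs 5′ to 3′ on the gene's strand and ends before the annotated start, and capitals mark the GAA and TTC units. The stretches are chr8:50080281-50080333 and chr8:50080439-50080491 (plus strand) for Hspa8, chr12:10427312-10427364 (plus) for Hsph1, chr12:26432383-26432450 (minus) for Hspb1, chr12:45837265-45837307 (plus) for Hspb8, chr1:192533308-192533355 (plus) for Bag3 and chr19:41431142-41431172 (minus) for Dnajb1.
Hspa8, far element: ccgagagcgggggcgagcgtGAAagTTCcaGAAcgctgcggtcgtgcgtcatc
Hspa8, near element: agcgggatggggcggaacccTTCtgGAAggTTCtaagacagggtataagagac
Hsph1: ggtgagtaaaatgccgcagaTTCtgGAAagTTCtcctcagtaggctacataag
Hspb1: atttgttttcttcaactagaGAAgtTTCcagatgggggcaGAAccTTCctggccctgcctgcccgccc
Hspb8: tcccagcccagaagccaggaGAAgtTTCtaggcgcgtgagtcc
Bag3: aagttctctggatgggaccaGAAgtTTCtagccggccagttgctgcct
Dnajb1: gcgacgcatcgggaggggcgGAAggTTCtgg
The 3-unit elements start 213 and 55 bases before the Hspa8 start and 36 bases before that of Hsph1. Hspb1, Hspb8 and Bag3 share the letters GAAGTTTC, which start 129, 23 and 132 bases before their annotated starts. GAAGTTTC was noted among the matches and not searched for, and its share of all promoters was not counted. Further pairs, outside the lines above, are TTCTCGAA 105 bases before the Hsph1 start and GAAGCTTC after that of Dnajb1. All of these are matches of letters, not measured binding sites.

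MCAO was set against sham LN to see which of these genes differ after a stroke of the hemisphere. Hspb1, Hspa1b and Hspa1a had the largest changes, Bag3 and Hspb8 were 4.36 and 3.54 times as high as in shams, and Dnajb1 was 1.51 times as high. In all, 6 of the 10 rose and 0 fell (edgeR quasi-likelihood test, adjusted p under 0.05), where 18.6% of tested genes changed, 12.5% up and 6.07% down. DESeq2 called 8 higher, adding Cryab and Hsph1, and over all tested genes called 2532 higher and 2052 lower. Limma voom called 6 higher, and over all tested genes 1641 higher and 1200 lower. Both called 0 of the 10 lower, and 0 of the 10 were lower at an unadjusted p under 0.05 by edgeR. Hspa1a reached the count minimum through the stroke libraries alone, and of the other 9 genes 5 rose. The median log2 change was 1.75 for the 10 genes, 1.68 without Hspa1a, and 0.00 (-0.0018) for all tested genes. The MCAO libraries lay above all LN shams for 8 of the 10, which holds for 20.4% of tested genes, and below them for 0, which holds for 18.7%. Hspa1a is among the 8. In bulk tissue, more RNA per cell and more cells of a type that makes it cannot be told apart.

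**Figure D1:**
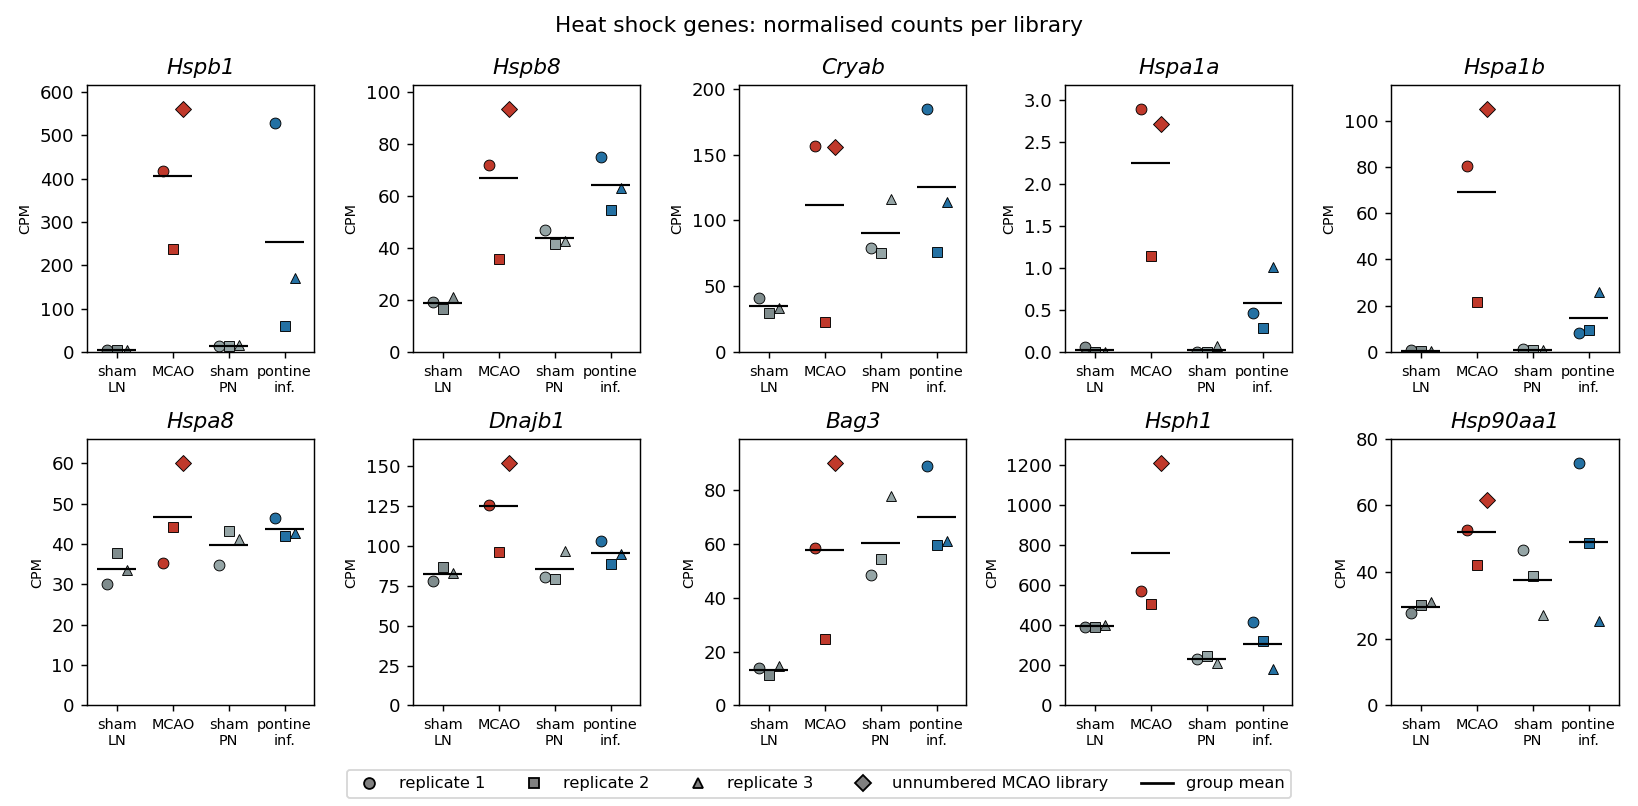
Normalised counts (CPM, linear axis from 0) of the 10 heat shock genes in each of the 12 libraries, by group; the marker shape gives the replicate and the black line the group mean. Hspb1 lies between 237 and 560 CPM in the MCAO libraries and below 5 CPM in the LN shams, and MCAO replicate 2 is the lowest MCAO library for 9 of the 10 genes.

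Among the small heat shock proteins, Hspb1 encodes HSP27, which also protects actin filaments. It stood at 418 CPM in MCAO replicate 1, 237 CPM in replicate 2 and 560 CPM in the unnumbered library, against 4.61, 4.52 and 3.79 CPM in sham LN replicates 1 to 3. Every MCAO library was far above every sham. The log2 change was 6.55 ± 0.72 (edgeR adjusted p = 0.000909), and it was the gene ranked 25 by p-value of the 17008.

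Hspb8, the partner of Bag3 in the removal of damaged proteins, stood at 71.9, 35.8 and 93.4 CPM in MCAO replicates 1 and 2 and in the unnumbered library. The LN shams had 19.4, 16.5 and 21.0 CPM. The groups did not overlap, and replicate 2 was nearest to the shams (log2 change 1.82 ± 0.28, edgeR adjusted p = 0.00288).

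Cryab encodes alpha-B crystallin, a small heat shock protein of lens, muscle and glia. It stood at 157 CPM in MCAO replicate 1 and 156 CPM in the unnumbered library, but at 23.1 CPM in replicate 2, below all LN shams (41.3, 29.8 and 33.7 CPM). The groups overlapped and the gene did not pass (log2 value 1.68 ± 0.56, edgeR adjusted p = 0.0554). Without replicate 2 it did (log2 change 2.07, edgeR adjusted p = 0.000738), as it did without a filter on low counts (edgeR adjusted p = 0.0492) and by DESeq2 (adjusted p = 0.0117). In 11 of 14 alternative settings it stayed short of the threshold, limma voom among them (adjusted p = 0.174). Summed oligodendrocyte markers were also lowest in replicate 2, at 7325 CPM against 11293 and 11461 CPM in the other MCAO libraries and 14792 to 21101 CPM in LN shams, and their part in the Cryab value was not tested.

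Hspa1b and Hspa1a are neighbouring, near-identical genes for the inducible HSP70, so reads can be hard to assign between them. Hspa1b stood at 80.3, 21.7 and 104.9 CPM in MCAO replicates 1 and 2 and in the unnumbered library. In sham LN replicates 1 to 3 it had 0.843, 0.482 and 0.382 CPM. No MCAO library came near the shams (log2 change 6.87 ± 0.72, edgeR adjusted p = 0.000821).

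Hspa1a was counted 60 and 23 times in the numbered MCAO replicates and 56 times in the unnumbered library, and 2, 0 and 0 times in the LN shams. Over the groups that was 139 counts against 2, a ratio of 103 after scaling, with an exact 95% counting interval of 27.9 to 855 that covers counting error only (edgeR adjusted p = 0.00303). It made up 2.52% to 5.52% of the counts of the pair in the 6 stroke libraries. With both genes summed, the log2 change after MCAO was 6.87 ± 0.72 (edgeR adjusted p = 0.000806).

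Hspa8 encodes the constitutive HSP70 of the cytosol, which is present without stress. It stood at 35.4 and 44.4 CPM in MCAO replicates 1 and 2, at 60.2 CPM in the unnumbered library and at 30.1, 37.7 and 33.7 CPM in LN shams. The groups overlapped and it did not pass (log2 value 0.46 ± 0.19, edgeR adjusted p = 0.099). The 95% interval of this change, 0.06 to 0.87, lies far under the change of Hspa1b, although no test compared the genes.

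Rows named as copies of Hspa8 and Hsp90aa1 held more counts than the genes' own rows. RefSeq names 33 pseudogene copies of Hspa8 and 16 of Hsp90aa1, of which 28 and 15 are rows of the table. The copies of Hspa8 held 87.8% to 90.0% of the counts of gene and copies in each library, and those of Hsp90aa1 held 70.1% to 78.0%. With the copies added, an alternative chosen after seeing the data, Hspa8 stood at 281 ± 32.9 CPM in sham LN and 414 ± 123 CPM after MCAO. Its log2 change was then 0.56 (edgeR adjusted p = 0.0641), and that of Hsp90aa1 was 0.82 (edgeR adjusted p = 0.0778). Adding the copies moved neither gene across the threshold. Whether the reads on those rows come from the genes or from the copies was not tested.

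**Figure D2:**
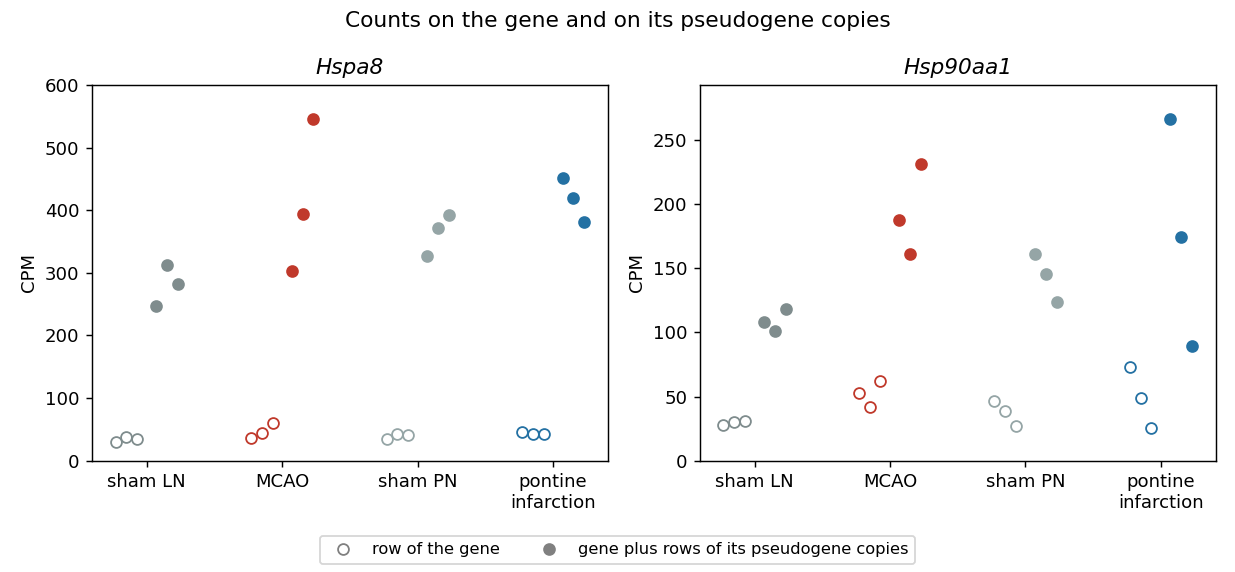
Normalised counts (CPM, linear axis from 0) of Hspa8 and Hsp90aa1 in each library, as the gene's own row (open points) and with the rows of its pseudogene copies added (filled points). The filled points of Hspa8 average 281 CPM in sham LN and 414 CPM after MCAO, far above the open points at 33.8 and 46.7 CPM.

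The HSP70 partners changed by different amounts. Bag3, which links HSP70 to the small heat shock proteins and to autophagy, stood at 58.2, 24.5 and 89.9 CPM in MCAO replicates 1 and 2 and in the unnumbered library. The LN shams had 13.8, 11.3 and 14.5 CPM. The groups did not overlap (log2 change 2.12 ± 0.39, edgeR adjusted p = 0.00551).

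Dnajb1, the J-domain protein that delivers clients to HSP70, stood at 126, 96.3 and 152 CPM against 78.2, 86.8 and 82.7 CPM in LN shams. Its change was small, with a log2 value of 0.59 ± 0.16 (edgeR adjusted p = 0.0269). It did not pass when any of MCAO replicate 1, the unnumbered library and the 3 LN shams was left out (edgeR adjusted p = 0.108, 0.106, 0.0997, 0.063 and 0.0826). Nor did it pass without a filter on low counts (edgeR adjusted p = 0.0655). In all, it lost the threshold in 8 of 14 alternative settings.

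Hsph1 encodes HSP105, an exchange factor that also helps to dissolve aggregates. It stood at 571 CPM in MCAO replicate 1, 505 CPM in replicate 2 and 1212 CPM in the unnumbered library, against 394 to 403 CPM in LN shams. The MCAO libraries lay above the shams, but the unnumbered library stood far from the others and the gene did not pass (log2 value 0.94 ± 0.33, edgeR adjusted p = 0.0688). It passed without replicate 2 (log2 change 1.08, edgeR adjusted p = 0.0261) and by DESeq2 (adjusted p = 0.0354). In 12 of 14 alternative settings it stayed short of the threshold, with an edgeR adjusted p of 0.318 without the unnumbered library.

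Hsp90aa1 encodes the inducible form of cytosolic HSP90, the chaperone of kinases and steroid receptors. It stood at 52.6, 42.1 and 61.7 CPM after MCAO against 27.7 to 31.0 CPM in LN shams. The groups did not overlap and the gene did not pass (log2 value 0.81 ± 0.32, edgeR adjusted p = 0.0949). It passed when the MCAO and LN libraries were fitted alone (edgeR adjusted p = 0.0361). In 14 of 15 alternative settings it stayed short of the threshold, with an edgeR adjusted p of 0.257 without the unnumbered library.

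Hspb1, Hspb8, Hspa1b and Bag3 passed whichever of the 6 libraries was left out, with edgeR adjusted p-values up to 0.0126, 0.0204, 0.0112 and 0.0298. The unnumbered library had the highest MCAO value of 8 of the genes, and replicate 2 the lowest of 9. Neutrophil, phagocyte and reactive astrocyte markers were also lowest in replicate 2, but highest in replicate 1. The 6 neutrophil markers summed to 599 and 49.8 CPM in MCAO replicates 1 and 2, to 266 CPM in the unnumbered library and to 3.42 to 4.48 CPM in LN shams. The 6 macrophage and phagocyte markers summed to 1438, 381 and 1023 CPM against 9.14 to 13.0 CPM. Of the reactive astrocyte markers, 6 of 6 tested rose and their sum was 9134, 4278 and 5129 CPM against 458 to 584 CPM. General astrocyte markers went the other way: 5 of 8 fell by edgeR, and their sum was 1827, 3075 and 2142 CPM against 3694 to 4311 CPM. Of 6 microglia markers 1 fell by edgeR and 3 by DESeq2, with a sum of 275.7 to 391.6 CPM against 334 to 394 CPM. The endothelial sum was 258 to 354 CPM after MCAO and 242 to 304 CPM in LN shams. Of its 6 genes 0 passed by edgeR (4 at an unadjusted p under 0.05, and 2 called by DESeq2 and 0 by voom). The 7 mural and smooth muscle markers summed to 166 to 284 CPM after MCAO against 118 to 153 CPM in LN shams. Of these 2 rose and 1 fell by edgeR. Immediate early genes, which respond to stress and activity and also to handling, summed to 1079, 699 and 2225 CPM against 447 to 689 CPM. The part of any of these cells or responses in the heat shock values was not tested.

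Pontine infarction was set against sham PN to ask the same of a brainstem stroke. Hspb1, Hspa1b and Hspa1a rose, and the other 7 genes did not pass. This is 3 of 10, and 2 of 9 without Hspa1a, where 4.08% of tested genes changed, 3.21% up and 0.870% down. The median log2 change was 0.45 for the 10 genes, 0.42 without Hspa1a, and -0.08 for all tested genes. The infarct libraries lay above all PN shams for 4 of the 10, which holds for 13.3% of tested genes, and below them for 0, which holds for 18.7%. Hspa1a is among the 4.

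Hspb1 stood at 528 CPM in pontine infarction replicate 1, 60.7 CPM in replicate 2 and 171 CPM in replicate 3, against 14.7, 13.4 and 15.6 CPM in sham PN replicates 1 to 3. The infarct libraries spanned a wide range, all of it above the shams (log2 change 4.12 ± 0.64, edgeR adjusted p = 0.00897). Without infarct replicate 1 the log2 change was 2.99 (edgeR adjusted p = 0.00843). Without sham PN replicate 2 or 3 it did not pass (edgeR adjusted p = 0.0709 and 0.0739).

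Hspa1b followed another order. It stood at 7.95, 9.45 and 26.1 CPM in pontine infarction replicates 1 to 3 and 1.03, 0.680 and 0.755 CPM in the PN shams. The highest library was replicate 3, not replicate 1 as for Hspb1 (log2 change 4.14 ± 0.65, edgeR adjusted p = 0.0093). Without infarct replicate 3 the log2 change was 3.41 (edgeR adjusted p = 0.022). Without sham PN replicate 2 or 3 Hspa1b did not pass either (edgeR adjusted p = 0.0714 and 0.078).

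Hspa1a had 10, 12 and 27 counts in the infarct libraries and 0, 0 and 2 in the PN shams. The ratio over the groups was 20.9, with an exact 95% counting interval of 5.48 to 177 (edgeR adjusted p = 0.0435). It passed in only 1 of the 6 fits with a library left out, the one without infarct replicate 2 (edgeR adjusted p = 0.0323). In the other 5, without sham PN replicates 1, 2 and 3 and infarct replicates 1 and 3, the edgeR adjusted p-values were 0.118, 0.174, 0.108, 0.0713 and 0.13.

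**Figure D3:**
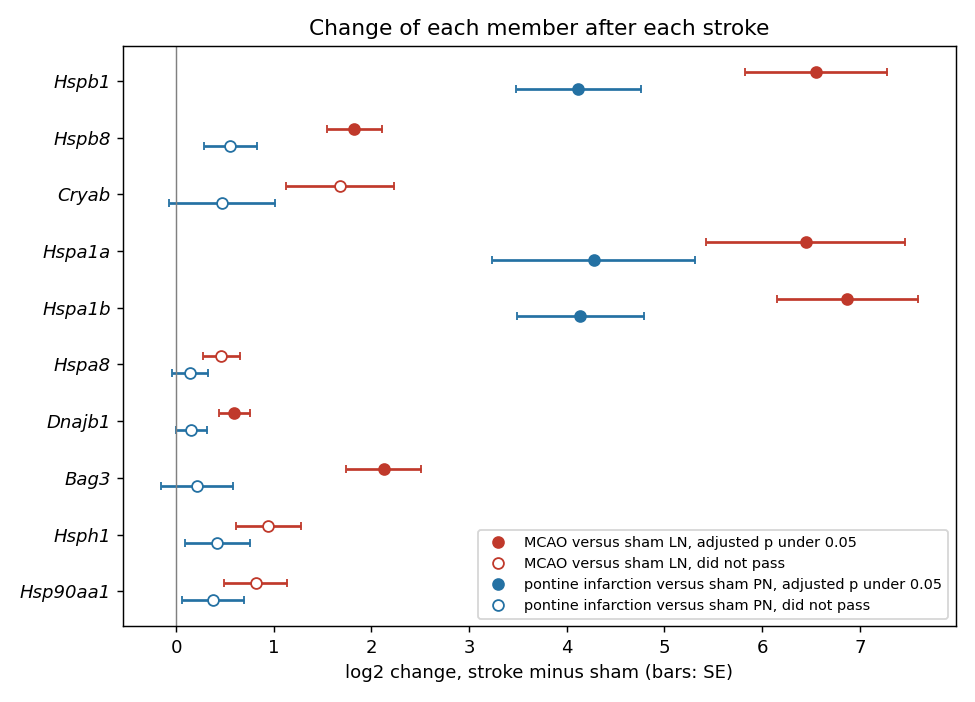
Log2 change of each heat shock gene after MCAO (red) and pontine infarction (blue) against the matched shams, with bars of 1 SE; filled points passed an edgeR adjusted p of 0.05. Hspb1, Hspa1a and Hspa1b are filled for both strokes, and Bag3 is filled for MCAO (2.12) and open for pontine infarction (0.22).

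The 7 genes that did not pass after pontine infarction had log2 changes from 0.14 to 0.56. Hspb8 stood at 74.8, 54.8 and 63.1 CPM in infarct replicates 1 to 3 and 46.8, 41.7 and 42.5 CPM in PN shams. The groups did not overlap, and the gene did not pass (log2 value 0.56 ± 0.27, 95% interval -0.04 to 1.15, edgeR adjusted p = 0.264). Bag3 stood at 88.8, 59.5 and 60.9 CPM against 48.4, 54.1 and 77.6 CPM in PN shams. These groups overlapped (log2 change 0.22 ± 0.37, 95% interval -0.59 to 1.02, edgeR adjusted p = 0.769).

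Cryab stood at 185, 76.3 and 114 CPM against 79.0, 75.5 and 116 CPM in PN shams, and its change did not pass (log2 0.47 ± 0.54, edgeR adjusted p = 0.647). Beside it, oligodendrocyte markers summed to 26463 to 28645 CPM after the infarct and 41135 to 51556 CPM in PN shams, with 2 of 6 lower by edgeR and 4 by DESeq2. Their part in the Cryab value was not tested. Hsph1 and Hsp90aa1 were both highest in infarct replicate 1 (418 and 72.8 CPM) and both lower in infarct replicate 3 (182 and 25.3 CPM) than in any PN sham. Hspa8 and Dnajb1 had the narrowest spread, at 42.1 to 46.4 and 88.5 to 103 CPM against 34.7 to 43.1 and 79.2 to 96.5 CPM in PN shams. Neither passed (edgeR adjusted p = 0.696 and 0.598).

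Across the infarct libraries, replicate 1 was highest for 8 of the 10 genes and replicate 3 for Hspa1a and Hspa1b. Neutrophil markers summed to 196, 20.9 and 49.0 CPM in infarct replicates 1 to 3, with 3.59 to 4.84 CPM in PN shams. Macrophage and phagocyte markers were highest in replicate 3, at 1445, 774 and 3910 CPM, with 119 to 148 CPM in PN shams. Reactive astrocyte markers summed to 7529, 4390 and 8163 CPM, with 1592 to 1795 CPM in PN shams. General astrocyte markers went the other way, at 3968, 4548 and 4586 CPM against 5274 to 5492 CPM. Neuron markers did too, at 3129, 3170 and 2218 CPM against 3987 to 4319 CPM. By edgeR 0 of these 8 and 0 of these 6 passed, with 1 and 3 lower at an unadjusted p under 0.05. Immediate early genes summed to 387, 206 and 262 CPM against 156 to 163 CPM. The part of any of these cells or responses in the order of the heat shock genes was not tested.

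**Figure D4:**
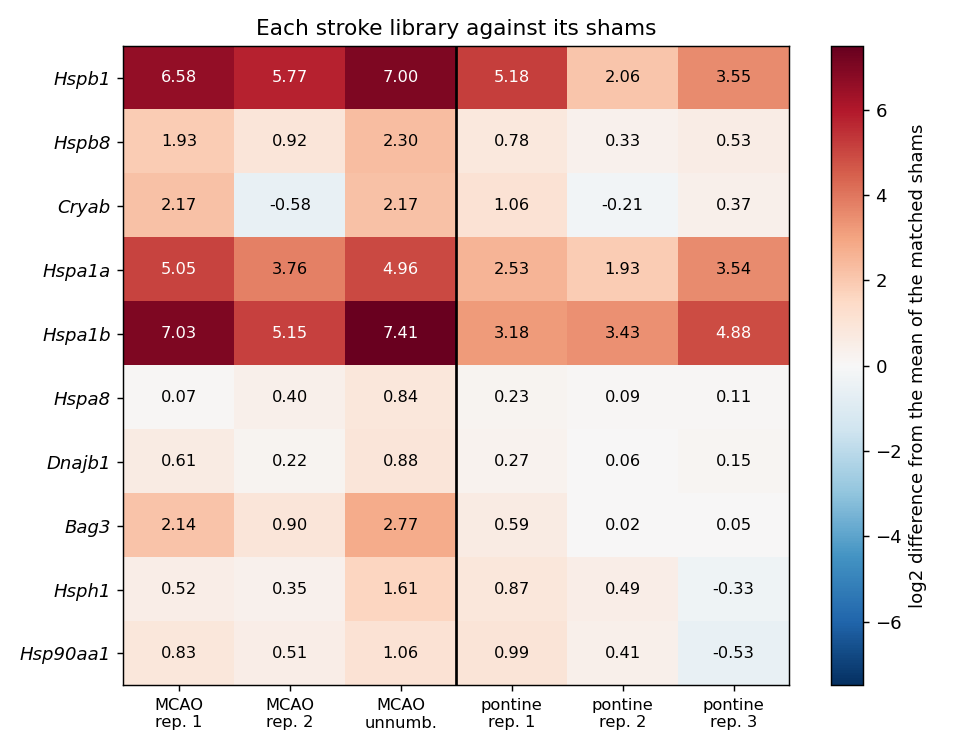
Log2 difference of each stroke library from the mean of its matched shams (colour and number; log2 CPM with a prior count of 2) for the 10 heat shock genes. Among the infarct libraries Hspb1 is largest in replicate 1 (5.18) and Hspa1b in replicate 3 (4.88), whereas both are largest in the unnumbered MCAO library (7.41 for Hspa1b).

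The difference between the responses was tested directly, as the MCAO change minus the infarct change. All 10 fitted values were above 0, with a median of 1.24 (1.21 without Hspa1a) against 0.08 for all tested genes, and none passed. By edgeR 0% of tested genes passed in this comparison. Bag3 differed by 1.91 ± 0.53 (95% interval 0.76 to 3.06, edgeR adjusted p = 0.269) and Hspa1b by 2.73 ± 0.89 (95% interval 0.79 to 4.68, edgeR adjusted p = 0.338). Hspb1 differed by 2.43 ± 0.83 (edgeR adjusted p = 0.353) and Hspb8 by 1.27 ± 0.39 (edgeR adjusted p = 0.312). These 4 had an unadjusted p under 0.05 by edgeR. Mean levels after MCAO and after pontine infarction were 57.5 and 69.8 CPM for Bag3 and 67.0 and 64.2 CPM for Hspb8. They were 69.0 and 14.5 CPM for Hspa1b and 405 and 253 CPM for Hspb1. In the shams Bag3 and Hspb8 were lower in LN than in PN (log2 LN minus PN -2.18 ± 0.39 and -1.20 ± 0.28). The part of these sham levels in the fitted differences was not tested. DESeq2 and limma voom called 0 of the 10, with 4 and 3 at an unadjusted p under 0.05. Over all 17008 genes edgeR, DESeq2 and voom called 0, 238 and 0, and 1826, 1992 and 1563 had an unadjusted p under 0.05. Without MCAO replicate 2, edgeR called 970 genes, and Bag3, Hspb8 and Hspa1b were among them (log2 difference 2.08, 1.38 and 2.96, edgeR adjusted p = 0.0106, 0.0114 and 0.0378).

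The sham groups were compared to see where the starting levels differ. Bag3 and Hspb8 were lower in sham LN than in sham PN, and the other genes did not pass. Bag3 averaged 13.2 ± 1.68 CPM in LN and 60.0 ± 15.5 CPM in PN shams, with no overlap (log2 LN minus PN -2.18 ± 0.39, edgeR adjusted p = 0.00207). Its level after MCAO, 57.5 ± 32.7 CPM, was near that of the PN shams. Hspb8 averaged 19.0 ± 2.25 CPM in LN and 43.7 ± 2.71 CPM in PN (log2 LN minus PN -1.20 ± 0.28, edgeR adjusted p = 0.0092). The background of this comparison is high, since 21.3% of tested genes differed and 11.3% were lower in LN. The labels do not give the brain region of either sham group, and its part in these differences was not tested.

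Hspb1 and Cryab were also lower in every LN than in every PN sham, at 4.31 ± 0.452 against 14.6 ± 1.12 CPM and 34.9 ± 5.88 against 90.3 ± 22.7 CPM. Neither passed when all 12 libraries shared a spread (edgeR adjusted p = 0.0601 and 0.101), and both did when the 6 shams were fitted alone (1.74e-05 and 0.000262 by edgeR, adjusted p). Hsph1 ran the other way, with 397 ± 5.56 CPM in LN and 230 ± 16.3 CPM in PN (edgeR adjusted p = 0.115, and 7.78e-05 with the shams alone). The fit of the shams alone called 6365 genes, 3301 higher and 3064 lower in LN, against 3625 in the main fit. In this comparison 4 of the 10 genes lay wholly below and 1 wholly above, where 29.2% and 21.7% of tested genes did. Summed oligodendrocyte markers were 14792 to 21101 CPM in LN and 41135 to 51556 CPM in PN, with 6 of 6 tested markers lower in LN. Reactive astrocyte markers summed to 458 to 584 against 1592 to 1795 CPM, with 1 of 6 lower by edgeR. Macrophage and phagocyte markers summed to 9.14 to 13.0 against 119 to 148 CPM, with 1 of 6 lower. General astrocyte markers summed to 3694 to 4311 against 5274 to 5492 CPM, with 3 of 8 lower and 2 higher. Immediate early genes went the other way, at 447 to 689 against 156 to 163 CPM, with 4 of 9 higher. The part of any of these in the heat shock values was not tested.

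Other chaperone genes were followed through 11 lists with 100 different genes, of which 96 were tested. After MCAO 20 of them rose, 0 fell by edgeR and 76 did not pass, with a median log2 change of 0.29. At an unadjusted p under 0.05 by edgeR 38 were higher and 5 lower, where 6055 of the 17008 tested genes passed in either direction. DESeq2 called 25 higher and 4 lower and limma voom 15 and 0, where they called 4584 and 2841 of all tested genes. After pontine infarction 3 rose, 0 fell by edgeR and 93 did not pass, with a median of 0.07. Here 17 were higher and 9 lower at an unadjusted p under 0.05 by edgeR, where 3670 of all tested genes passed in either direction. DESeq2 called 9 higher and 1 lower and limma voom 2 and 0, where they called 1738 and 315 of all tested genes. By the edgeR adjusted p, the shares of all tested genes that rose were the 12.5% and 3.21% given above.

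The chaperonin TRiC, a ring that folds actin and tubulin, had 6 of 8 subunit genes up after MCAO. Their log2 changes were small, 0.74 ± 0.14 for Cct3, 0.74 ± 0.16 for Cct4 and 0.70 ± 0.17 for Tcp1 (edgeR adjusted p = 0.00702, 0.0113 and 0.0172). After pontine infarction 0 of the 8 passed by edgeR and by voom and 1 by DESeq2, with 2 at an unadjusted p under 0.05 by edgeR and a median of 0.25. Of 15 chaperones of the endoplasmic reticulum, 5 rose after MCAO, among them the collagen chaperone Serpinh1 (log2 change 1.30 ± 0.19, edgeR adjusted p = 0.00246) and the disulfide isomerases Pdia4 (0.56 ± 0.16, edgeR adjusted p = 0.0313) and Pdia3 (0.64 ± 0.18, edgeR adjusted p = 0.0341). The 3 other chaperones that rose after pontine infarction are all of this list: Sdf2l1 (1.34 ± 0.24), Pdia4 (0.75 ± 0.16) and Pdia6 (0.62 ± 0.15), with edgeR adjusted p = 0.0145, 0.0246 and 0.0394.

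Among other HSP70 genes, 2 of 9 rose after MCAO, Hspa2 (log2 change 1.56 ± 0.21, edgeR adjusted p = 0.00198) and Hspa1l (2.50 ± 0.68, edgeR adjusted p = 0.0277). Hspa1l is a close relative and neighbour of Hspa1a and Hspa1b, so its reads may be shared with theirs. The mitochondrial partners Hspe1 and Hspd1, the chaperonins HSP10 and HSP60, rose by 0.60 ± 0.19 and 0.62 ± 0.19 on the log2 scale (edgeR adjusted p = 0.0442 and 0.0446). Bag5 and Bag2, relatives of Bag3, rose by 0.89 ± 0.22 and 0.66 ± 0.19 (edgeR adjusted p = 0.02 and 0.0328). Of 14 HSP90 co-chaperones, Ptges3, the p23 protein, rose (0.66 ± 0.20, edgeR adjusted p = 0.0429).

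Of 17 other J-domain genes 0 passed after either stroke by edgeR, with 3 at an unadjusted p under 0.05 after MCAO and 2 after pontine infarction. DESeq2 called 2 of them lower after MCAO, and voom called 0. Of 5 other tested small heat shock genes 0 passed by edgeR, DESeq2 or voom, with 2 at an unadjusted p under 0.05 by edgeR after MCAO and 1 after pontine infarction. Of the factors that control the response, Ier5, an HSF1 cofactor, rose after MCAO (log2 change 0.91 ± 0.28, edgeR adjusted p = 0.0422). Transcripts of Hsf1 stood at 30.6 ± 3.36 CPM after MCAO and 31.5 ± 1.74 CPM in LN shams (edgeR adjusted p = 0.85), which says nothing of the activity of the protein. Hsp90ab1, the constitutive HSP90, stood at 1811 ± 254 CPM after MCAO and 1673 ± 94.4 CPM in LN shams (edgeR adjusted p = 0.635). Of 8 tested partners of Bag3 in chaperone-assisted autophagy, Flnc, the muscle-type filamin that this pathway clears, rose after MCAO from 21.3 ± 2.50 to 160 ± 98.7 CPM (log2 change 2.91 ± 0.38, edgeR adjusted p = 0.00166), and 7 did not pass.

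**Figure D5:**
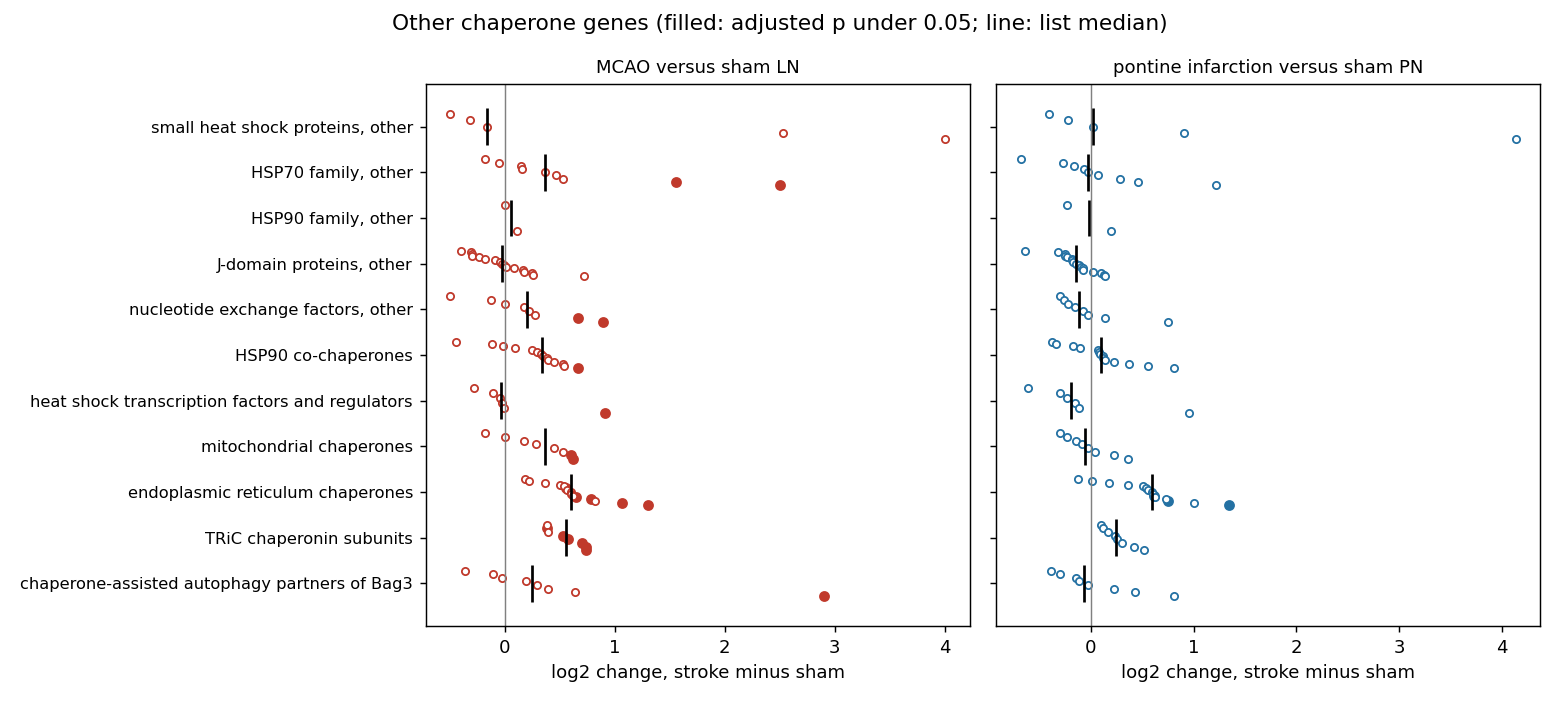
Log2 change after MCAO (left) and pontine infarction (right) of the tested genes in 11 lists of other chaperones; each point is a gene, filled where the edgeR adjusted p was under 0.05, and the black line is the list median. TRiC subunits cluster above 0 after MCAO with 6 of 8 filled, and J-domain genes are spread around 0 with 0 filled.

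The genes most like each heat shock gene over the 12 libraries are given as a description. They share libraries and group means with it. Hspb1 was nearest to Glipr2 (Pearson r = 0.992 of log2 CPM), Bcl3 and Mefv, and Hspa1b to Tubb6 (0.982), Fam129b and Gpr19. Hspa1a, its twin, was nearest to LOC103691881 (0.977), Fam129b and Pdpn. Hspb8 was nearest to Gal (0.978), Fgl2 and Adamts7, Bag3 to Anks1a (0.966), Gtf2b and Trim26, and Cryab to St3gal4 (0.951), Mtmr2 and LOC103693267.

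Dnajb1 was nearest to Pdcd11 (0.98), Ftsj3 and Samd4b, and Hsph1 to Jhdm1d (0.97), Kdm1a and Fastkd5. The nearest rows to Hspa8 were LOC689955 (0.967), which RefSeq names as one of its pseudogene copies, LOC680121 and LOC100363133. Hsp90aa1 was nearest to LOC103692716 (0.981), LOC102548499 and the mitochondrial chaperonin Hspd1. Within the heat shock genes the closest pairs were Hspa1a with Hspa1b (0.983), Hspb8 with Bag3 (0.936) and Hspb1 with Hspa1b (0.93), and the loosest was Bag3 with Hsph1 (-0.022).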

How the data were processed

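The deposited table holds raw gene counts by symbol, made by the authors. The submitters' processing notes name the aligner HISAT2 and the genome build Rnor_6.0. How reads were counted (program, annotation, strand, reads with several matches) is not given in the sources used here. Per the labels, RNA had an integrity number above 8.

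The tools were edgeR 4.0.16, DESeq2 1.42.0 and limma 3.58.1 under R 4.3.3. The filter on low counts was edgeR's filterByExpr, with a minimum count of 10 and a minimum total of 15. All 12 libraries, scaled by TMM, entered 1 quasi-likelihood fit, with 4 comparisons and Benjamini-Hochberg adjusted p-values over 17008 genes (threshold 0.05, two-sided). It was tested on simulated data. Each SE was obtained by dividing the size of the log2 change by the root of its F statistic. The heat shock genes and the lists were chosen with earlier results of these data known. Of other chaperones, up to 3 per list with the smallest adjusted p were named. As most alike, the 3 tested genes outside the 10 with the highest Pearson r per member were named. Hsf1 and Hsp90ab1 were named after their values were seen. Promoters and names are RefSeq's, on GRCr8. Alternatives were other size factors (DESeq2), no filter, a minimum of 1 CPM in at least 3 libraries, the tests of DESeq2 and of limma voom, the compared libraries alone, a replicate block, leaving out each library, Hspa1a and Hspa1b summed, and, added after seeing the data, Hspa8 and Hsp90aa1 summed with their copies.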

Additional observations from a re-analysis of the deposited data

How the results depend on the processing

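Of 695 values recomputed under alternatives, 621 kept their direction and their side of the threshold (counts within 1.5 times), 24 lost the threshold, 14 gained it, 6 changed sign and 30 counts moved. With 1 library left out, the number of all genes called ran from 1136 to 6170 for MCAO, 6 to 965 for pontine infarction, 0 to 970 for the difference and 2334 to 2662 between shams. The heat shock genes called ran from 5 to 8, 0 to 3, 0 to 3 and 2 to 2. The pontine calls fell to 0 of the 10 without sham PN replicate 2 or 3 (52 and 6 genes in all), and the highest MCAO count came without MCAO replicate 2. On the compared libraries alone 1354 genes were called for MCAO and 6365 between shams, with 5 heat shock genes, and Dnajb1 did not pass after MCAO (adjusted p = 0.0816). DESeq2 called 1738 genes for pontine infarction, 238 for the difference and 4 heat shock genes between shams. By limma voom pontine infarction had 315 genes and 1 heat shock gene, Hspb1. Without a filter 1 gene was called for the difference. Values near 0 changed sign. The log2 difference of Dnajb1 between shams was 0.0039 with DESeq2 size factors, 0.061 without a filter, 0.0037 by DESeq2 and 0.032 with the shams alone, and -0.0995 to 0.0483 with 1 library left out. The change of Hsp90aa1 after pontine infarction was -0.0198 to 0.692 with 1 library left out. The cause of these shifts was not tested.

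By the labels, same-numbered libraries share only a number. Their deviations from the group means correlated at 0.0483, 0.15 and 0.154 for pontine infarction and 0.104 and 0.0426 for MCAO. Each numbered stroke library, pontine and MCAO, correlated best with the sham of its own number, a hint from the data and not the design. With the replicate block, which left out the unnumbered library, 126 genes and 2 heat shock genes (Hspb1 and Hspa1b) were called for MCAO. For pontine infarction 101 genes and 1 heat shock gene (Hspa1b) were called. This fit had fewer degrees of freedom than the main fit, which held no pairing and called 6 and 3 heat shock genes. The block could not be fitted between shams. Libraries of 3 a group and the counts of Hspa1a limit the precision.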

Other observations

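Cryaa, the alpha-A crystallin of the lens and closest relative of Cryab, was singled out after its values were seen. It had 232 counts in pontine infarction replicate 1 and 29 and 12 in replicates 2 and 3. The PN shams had 4, 12 and 1 counts, the MCAO libraries 8, 6 and 12, and the LN shams 1, 1 and 0. In CPM infarct replicate 1 stood at 10.8 and the others of its group at 0.678 and 0.449. It did not pass after pontine infarction (edgeR adjusted p = 0.0757) or MCAO (edgeR adjusted p = 0.0975). Infarct replicate 1 was also the highest of its group for Cryab, Hspb1 and Hspb8.

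Hspb7, a small heat shock protein of heart and muscle, averaged 1.30 ± 1.31 CPM after MCAO and 0.219 ± 0.0872 CPM in LN shams (edgeR adjusted p = 0.11). Hsf4, the heat shock factor of the lens, was lower in sham LN than in sham PN, at 1.83 ± 0.198 against 18.6 ± 2.68 CPM (log2 LN minus PN -3.34 ± 0.21, edgeR adjusted p = 4.86e-06). Both were also singled out after their values were seen.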
